A study of Mus musculus with 12 samples.

Results

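The levels of Trp53, which encodes p53, and of 9 of its classic direct targets, Mdm2, Ccng1, Zmat3, Phlda3, Eda2r, Sesn1, Sesn2, Bax and Trp53inp1, were followed through adipogenic differentiation with and without knockdown of Fto. These 10 genes were taken by symbol from a table of 55487 genes, and each symbol had a single entry. The RNA came from 3T3-L1 cells, mouse fibroblasts that can become fat cells, carrying a lentiviral hairpin with a scrambled sequence (shScram) or against Fto (shFto), the gene of an RNA demethylase. Both lines were infected and selected with puromycin, the U6 promoter drove the hairpin, and which of the hairpins designed against Fto was sequenced is not named. Cells were collected as preadipocytes (Pre), at the mitotic clonal expansion (MCE) stage after induction with IBMX, dexamethasone and insulin, and as mature adipocytes (Diff), with 2 libraries in each of 6 groups. Replicates are not stated to be separate cultures, so the p-values measure only the spread between these libraries.

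p53 is a transcription factor that is kept low in unstressed cells because Mdm2, a ubiquitin ligase and itself a p53 target, marks it for destruction. DNA damage and other stresses stabilise the protein, which then switches on genes for cell cycle arrest, metabolic control and cell death. In preadipocytes this matters because cells that are induced to become fat cells first re-enter the cell cycle, and p53 is known as a restraint on adipogenic differentiation. Activity of p53 is set mainly at the protein, so the mRNA levels given here describe the transcripts of the pathway and not the activity of the protein.

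Abundance was deposited as TPM, a share of all transcripts corrected for transcript length, which keeps no sequencing depth, so the depth behind each value is unknown. Tests were run with limma on log2(TPM + 1), a scale that understates changes of low genes, and a call is an adjusted p under 0.05 over 15968 genes. All 10 genes passed the filter on low values. Fto itself held 52.7 to 73.5 TPM in shScram libraries and 5.51 to 7.47 TPM in shFto libraries. For differentiated shScram cells, the labels of replicate 1 conflict: its treatment entry names the knockdown and its title the control hairpin, which was followed, and its Fto level of 73.5 TPM was the highest of the 12. Summed over 7 fibroblast markers the level was 6886 TPM or more in every library. Ptprc, Adgre1 and Itgam of 6 macrophage markers and all 4 endothelial markers were under 1 TPM everywhere, while the other 3 macrophage markers reached 1 TPM. The 6 macrophage markers summed to 10.98 and 9.49 TPM in shFto preadipocytes and to 5.15 and 8.44 TPM in shScram preadipocytes. At the later stages they summed to 1.62 to 3.62 TPM. Summed adipocyte markers reached 1521 to 1536 TPM in shScram cells and 397 to 436 TPM in shFto cells at the differentiation stage. Below, differentiated therefore names the stage and not the state that the cells reached. Whether this difference has a part in other changes between the lines at that stage was not tested. In such bulk samples fewer cells of a type and less RNA per cell cannot be told apart.

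A single library, replicate 1 of shScram preadipocytes, did not look like the others. Mitochondrial genes took 14.5% of its TPM against 4.58% to 9.17% in the others, and its correlation with replicate 2 across genes was 0.939, where the other groups had 0.990 to 0.993. The 10 genes were split by it along the GC content of their transcripts. Trp53, Sesn2, Bax and Phlda3, with 53.3% to 63.5% GC, were higher in replicate 2 by 1.32 to 2.58 on the log2(TPM + 1) scale. Ccng1, Mdm2, Trp53inp1 and Eda2r, with 38.8% to 46.2% GC, had differences of -0.67 to -0.50, while Zmat3 and Sesn1 had 0.20 and -0.07. In the other 5 groups no gene of the 10 differed between replicates by more than 0.45. The part of GC content in the results was not tested beyond a fit with a GC correction. Because all groups share an estimate of the spread, this pair widened the error of every comparison. Values are from all 12 libraries unless stated. Leaving a library out leaves a single library in its group. Comparisons with that group then take their spread from the other groups alone, and their p-values hold no spread of that group. The values without replicate 1 of shScram preadipocytes stand beside most given changes that it moved by over 1.5 times or whose call it changed. Some changes whose call it altered are not given, among them the first step of Sesn2 in shFto cells and the second steps of Ccng1 and Phlda3 in shScram cells.

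**Figure D1:**
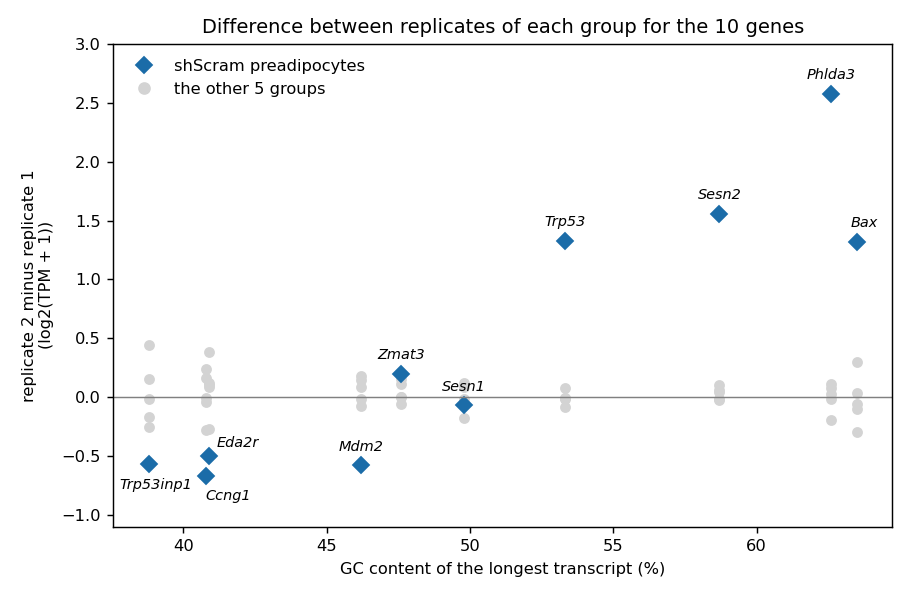
Difference between replicate 2 and replicate 1 of each group, in log2(TPM + 1), against the GC content of the longest transcript in percent, with 1 point per gene and group. The shScram preadipocytes (diamonds) run from -0.67 for Ccng1 to 2.58 for Phlda3, while the other 5 groups (grey) stay within 0.45 of 0.

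Sequence around the start sites was searched for the p53 half-site, the decamer that a pair of p53 proteins binds, to show what the promoters of the 10 genes hold. RefSeq start-site windows on GRCm38.p6, from 250 bases before to 50 after the start, were found for 8 of the 10 genes, none for Zmat3 and Trp53inp1. An exact half-site, searched on both strands, lay in 5 of 9 windows of these genes, those of Trp53, Mdm2, Ccng1, Bax and 1 of the 2 windows of Sesn1, and in 8.36% of all 32851 windows. A full site, 2 half-sites with at most 13 bases between them and at most 1 mismatch, lay in the windows of Ccng1 and Bax and in 1.09% of all windows. The stretches are shown with 10 bases on either side because they are the only exact matches in these windows, with the half-site in capitals and the strand of the gene.
Trp53, chr11:69580274-69580303, plus strand: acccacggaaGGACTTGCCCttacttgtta
Mdm2, chr10:117710925-117710954, minus strand: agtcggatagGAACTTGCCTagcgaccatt
Ccng1, chr11:40755452-40755481, minus strand: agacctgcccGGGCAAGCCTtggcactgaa
Sesn1, chr10:41887256-41887285, plus strand: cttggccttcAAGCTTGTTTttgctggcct
Bax, chr7:45467080-45467109, minus strand: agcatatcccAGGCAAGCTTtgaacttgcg
The matches began 75 bases before the annotated start in Trp53, 173 in Sesn1, 185 in Ccng1, 186 in Mdm2 and 201 in Bax. The start of the Sesn1 window that holds the match is an internal alternative start 77504 bases inside the gene model, and the Sesn1 window near the first start, 639 bases inside the model, held none. The full site of Ccng1 used the capitals and the bases just before them, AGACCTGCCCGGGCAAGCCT, and that of Bax had 1 base between its half-sites, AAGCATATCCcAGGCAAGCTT. A match describes the letters only, and sites further from the start, where several p53 targets are known to be bound, were not searched.

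The 10 genes differed widely in level. Mdm2 was the 13th most abundant of the 55487 genes by mean TPM, with 4839 TPM over the 12 libraries. Phlda3, Bax, Trp53 and Ccng1 followed with 208, 175, 150.0 and 143 TPM, and their ranges over libraries overlapped. Sesn2, Trp53inp1 and Sesn1 had 47.1, 43.9 and 40.3 TPM, and Zmat3 and Eda2r the lowest means, with 26.3 and 19.5 TPM. The median over the 15968 tested genes was 15.0 TPM.

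**Figure D2:**
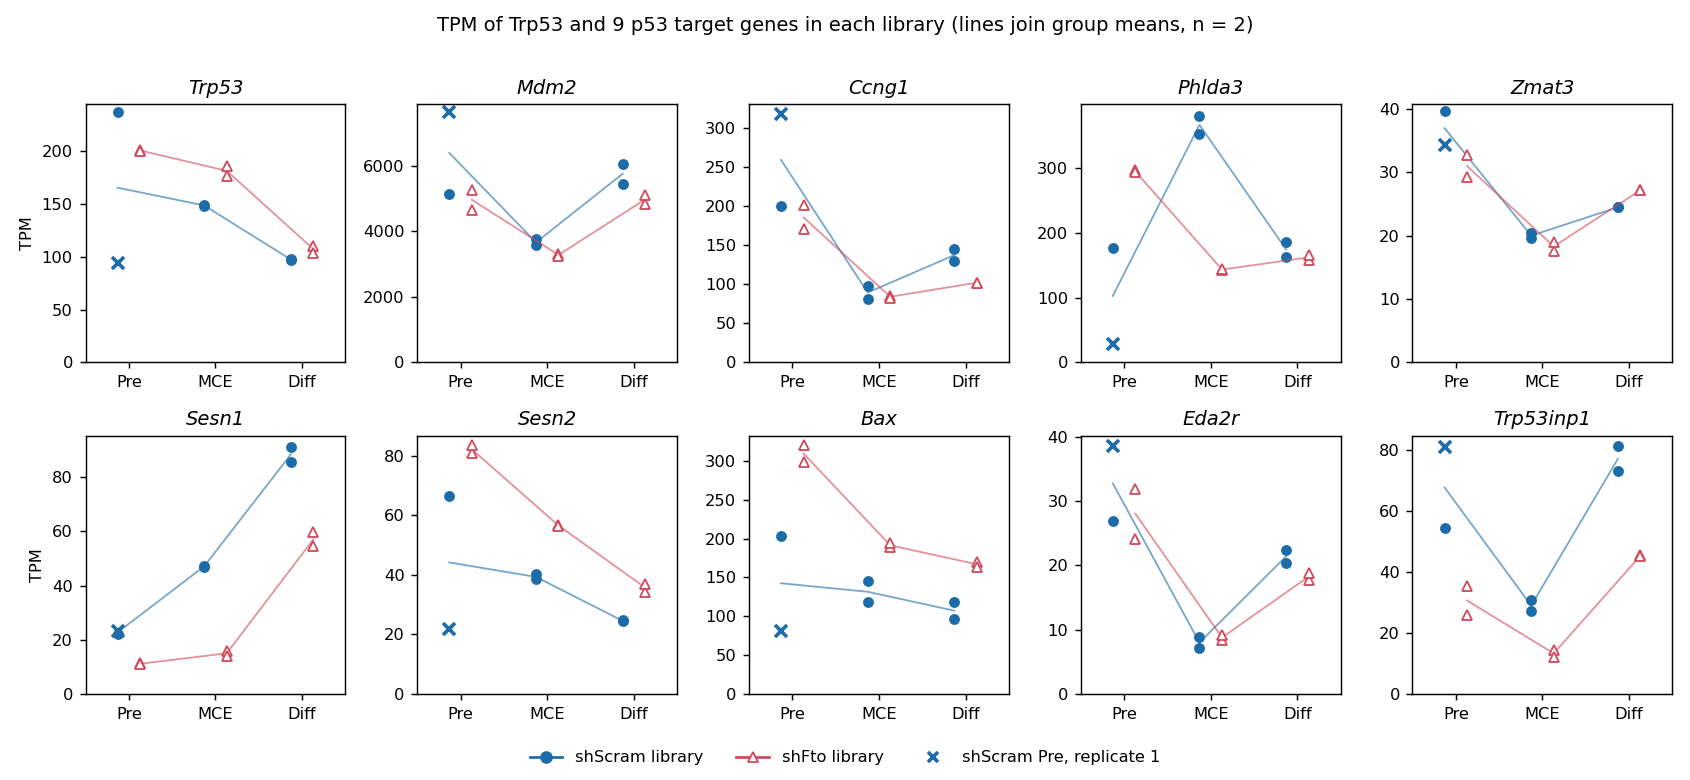
TPM of each of the 10 genes (linear axes from 0, 1 panel per gene) in shScram (circles) and shFto (triangles) libraries at the Pre, MCE and Diff stages, with lines through group means and replicate 1 of shScram Pre marked by a cross. At every stage the shFto libraries lie under the shScram libraries for Sesn1 and Trp53inp1, and above them for Bax and Sesn2.

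Over the first stage step, from preadipocytes to the MCE stage, the calls among these genes were mostly lower. In shScram cells 7 of the 10 were called, Mdm2, Ccng1, Zmat3, Eda2r and Trp53inp1 lower and Phlda3 and Sesn1 higher, where 39.1% of all tested genes were called. In shFto cells 5 were called, Ccng1, Zmat3, Eda2r and Trp53inp1 lower and Sesn1 higher, against 28.7% of all genes. Genes moved down more often than up in general, with 26.9% called lower and 12.2% higher in shScram cells and 19.9% and 8.8% in shFto cells. Libraries of the 2 stages did not overlap for 7 of the 10 genes in shScram and for 10 in shFto cells, where 62.5% and 76.9% of all genes did not. The median change of the 10 genes was -0.39 in shScram and -0.71 in shFto cells, and that of all tested genes -0.17 and -0.18. With that library left out the shScram medians were -0.71 and -0.24, and 10 and 9 genes were called, against 48.1% and 51.1% of all genes. Under median-ratio scaling, quantile normalization or GC correction the median of all genes moved up by 0.13 to 0.21 in this step, so a change of that size is not distinguished from the scaling.

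Over the second stage step, from the MCE stage to differentiated cells, several of the same transcripts came back up. In shScram cells Mdm2, Eda2r, Sesn1 and Trp53inp1 were called higher, 4 of 10 against 25.2% of all genes. In shFto cells Zmat3, Eda2r, Sesn1 and Trp53inp1 were called higher, again 4 of 10, against 26.7%. Of all genes, 20.0% were called higher and 5.22% lower in shScram cells, and 20.2% and 6.48% in shFto cells. Libraries of the stages did not overlap for 9 and 10 of the 10 genes, and for 75.0% and 78.8% of all genes. The median of the 10 genes was 0.45 in shScram and 0.41 in shFto cells, where all genes had 0.23 and 0.17. Without the library that stood apart 9 and 7 were called, against 52.0% and 50.9% of all genes. Scaling lowered the median of all genes by 0.17 to 0.24 in this step. Both steps use the MCE libraries, so a gene that is low there is low against both neighbours by construction. Summed mitotic markers were 765 to 814 TPM during MCE and 148 to 160 TPM at the differentiation stage in shScram cells, and 663 to 702 and 280 to 308 TPM in shFto cells. The part of proliferating cells in these changes was not tested.

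By the test on all libraries, the knockdown effect was called for 2 to 4 of these genes at each stage. In preadipocytes Bax and Phlda3 were called higher and Sesn1 and Trp53inp1 lower in shFto cells, 4 of 10 against 28.2% of all genes. At the MCE stage Sesn1 and Trp53inp1 were called lower, 2 of 10 against 17.8% called and 7.26% called lower, and at the differentiation stage the same 2 genes were called lower, against 21.2% and 9.31%. The median change of the 10 genes was -0.23, -0.10 and -0.16 at the successive stages, and that of all genes 0.08, 0.05 and 0.03. These shares lie near those of all genes at the MCE and differentiation stages. Libraries of the 2 lines did not overlap for 6, 8 and 9 of the 10 genes, where 60.5%, 71.4% and 72.9% of all genes did not. Without the library that stood apart the medians in preadipocytes were -0.08 for the 10 genes and 0.00 for all genes, and 7, 6 and 5 genes were called at the successive stages, against 29.0%, 41.0% and 45.7% of all genes.

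**Figure D3:**
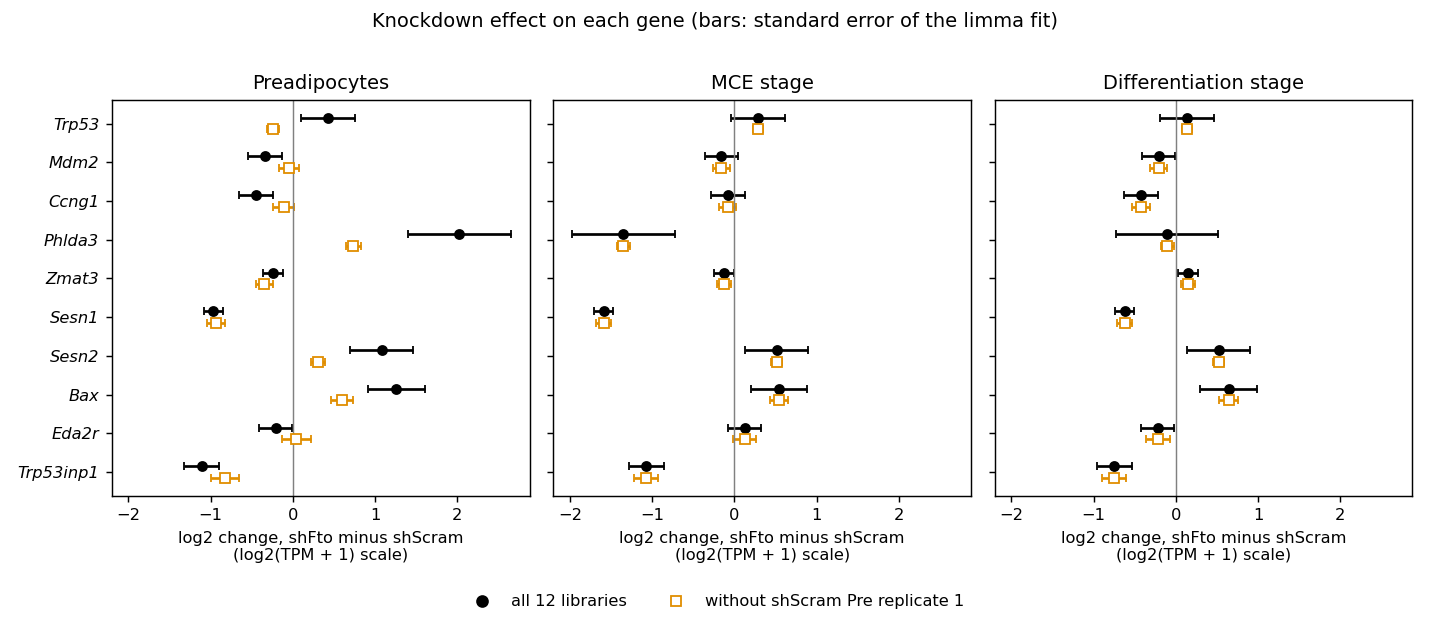
Change of each gene between the lines (shFto minus shScram, log2(TPM + 1)) at the 3 stages, with all 12 libraries (filled circles) and without replicate 1 of shScram Pre (open squares), and bars for the standard error of the limma fit. Sesn1 and Trp53inp1 lie to the left of 0 and Bax and Sesn2 to the right at every stage in both fits, while Phlda3 goes from 2.03 in preadipocytes to -1.35 at the MCE stage.

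Trp53 (ENSMUSG00000059552, chr11:69580359-69591873, plus strand of GRCm38) is the source of p53. In shScram cells its replicates held 93.7 and 237 TPM as preadipocytes, 149 and 148 TPM during MCE and 97.5 and 97.1 TPM after differentiation. In shFto cells they held 201 and 200, 176 and 186, and 110 and 104 TPM. Apart from the library that stood apart, Trp53 was highest in preadipocytes and lowest in differentiated cells of both lines. With all 12 libraries its first step was -0.0057 in shScram and -0.15 in shFto cells, and median-ratio scaling turned these to 0.22 and 0.091. Without that library the first step in shScram cells was -0.67. At the MCE and differentiation stages both shFto libraries were above both shScram libraries. With all libraries no comparison of Trp53 was called. The second step was -0.60 in shScram and -0.75 in shFto cells (SE 0.33, adjusted p = 0.213 and 0.128). When the library that stood apart was left out, the same changes had an SE of 0.060 and adjusted p = 3.2e-05 and 6.48e-06, and the higher level of shFto cells at the MCE stage, 0.29, was called (adjusted p = 0.00365). The change between the lines in preadipocytes was 0.43 with that library and -0.24 without it (adjusted p = 0.337 and 0.0348), so its direction rests on that library.

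Mdm2 (ENSMUSG00000020184, chr10:117688875-117710758, minus strand), the ubiquitin ligase that limits p53, had very high levels throughout. In shScram cells the replicates held 7656 and 5134 TPM as preadipocytes, 3755 and 3572 TPM during MCE and 5459 and 6055 TPM after differentiation. In shFto cells they held 4659.9 and 5267, 3302 and 3260.4, and 4827 and 5125 TPM. The 4 MCE libraries were the lowest of the 12. Mdm2 changed over the first step by -0.78 in shScram cells (SE 0.20, adjusted p = 0.0158, and 0.0584 or 0.0867 without MCE replicate 1 or 2) and -0.59 in shFto cells (adjusted p = 0.0561), and over the second by 0.65 (adjusted p = 0.0448, and 0.0674 to 0.212 without any 1 of the 10 libraries other than shScram preadipocytes) and 0.60 (adjusted p = 0.0567). Without the library that stood apart the first step in shScram cells was -0.49, and all 4 of these changes were called, with adjusted p from 0.000509 to 0.00865. GC correction gave -0.44 and 0.41 for the steps in shScram cells and median-ratio scaling 0.38 for the second, none of these called (adjusted p = 0.0538, 0.0879 and 0.29). Between the lines Mdm2 differed by -0.34, -0.16 and -0.21 at the successive stages, none of them called (adjusted p = 0.218, 0.67 and 0.521). In preadipocytes the value was -0.05 without replicate 1 of the shScram cells (adjusted p = 0.793) and -0.63 without replicate 2 (adjusted p = 0.00127), so its size rests on that pair, and under quantile normalization the first and last of these turned positive.

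The level of Mdm2 set it apart from the genes around it. Of 12 protein-coding genes that start within 500 kb, only Slc35e3, a solute carrier gene 22920 bases away, came near it, with 1454 TPM on average, rank 101 of all genes, and 1194 to 2035 TPM over the libraries. The other 10 had means between 0 and 104 TPM, and Cpm, on the other side of Mdm2, had 2.39 TPM. Mdm2 was first described as an amplified gene on double minute chromosomes of a line derived from 3T3 cells. DNA was not measured here, and whether copy number differs at this site was not tested. Slc35e3 was lower in shFto cells after differentiation, at 1194 and 1222 TPM against 2035 and 1992 TPM (log2 change -0.74, SE 0.13, adjusted p = 0.00503). These neighbours were looked at after the level of Mdm2 was seen.

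**Figure D4:**
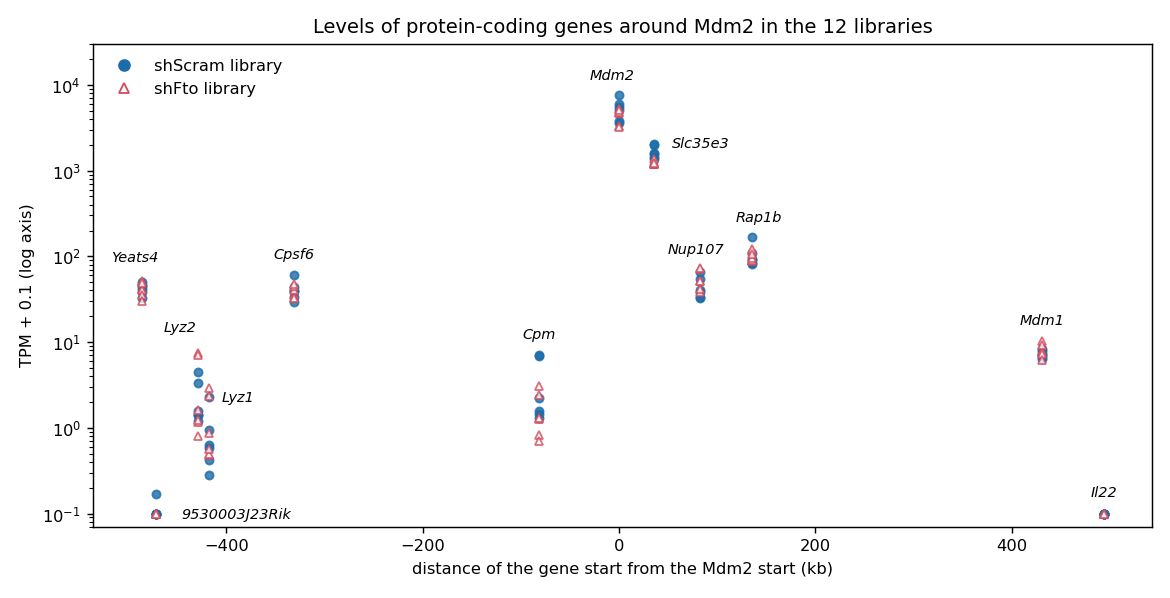
TPM plus 0.1 on a log axis of the 12 protein-coding genes that start within 500 kb of Mdm2, against the distance of their start from that of Mdm2 in kb, with 1 point per library. Mdm2 and Slc35e3 have at least 1194 TPM in all 12 libraries, and the gene with the next highest mean, Rap1b, has a mean of 104 TPM.

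Ccng1 (ENSMUSG00000020326, chr11:40748552-40755311, minus strand) encodes cyclin G1, which recruits a phosphatase to Mdm2 and helps to limit p53. The shScram replicates held 318 and 200 TPM as preadipocytes, 97.9 and 80.8 TPM during MCE and 129 and 145 TPM after differentiation. The shFto replicates held 170 and 201, 85.2 and 82.8, and 102.1 and 101.8 TPM. Preadipocytes lay above both later stages in both lines. Over the first step Ccng1 changed by -1.49 in shScram cells (SE 0.21, adjusted p = 0.000758) and -1.13 in shFto cells (adjusted p = 0.00363), and both were called without the library that stood apart. The first of these was -0.91 under GC correction (adjusted p = 7.09e-05). After differentiation shFto cells were lower by both libraries, with a change of -0.42 that was not called with all libraries (adjusted p = 0.191) and was called in 5 of 22 alternatives, among them that without replicate 1 of shScram preadipocytes (adjusted p = 0.00851).

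Zmat3 (ENSMUSG00000027663, chr3:32334792-32366014, minus strand), a zinc finger protein that binds RNA, had 34.3 and 39.6 TPM in shScram preadipocytes, 20.4 and 19.6 TPM during MCE and 24.5 and 24.5 TPM after differentiation. In shFto cells it had 29.3 and 32.7, 17.5 and 19.1, and 27.2 and 27.2 TPM. The stages did not overlap in either line, and the order was preadipocytes, differentiated cells, MCE. Its first step was -0.85 in shScram and -0.73 in shFto cells (SE 0.12, adjusted p = 0.000856 and 0.00215). The second step was 0.55 in shFto cells (adjusted p = 0.0106, and 0.0633 to 0.0901 without MCE replicate 1 or either differentiated replicate) and 0.28 in shScram cells (adjusted p = 0.126), and the difference between these steps was not called (adjusted p = 0.539). Median-ratio scaling lowered the step in shFto cells to 0.34 (adjusted p = 0.04). Without the library that stood apart the step in shScram cells was called as well (adjusted p = 0.0204). Between the lines in preadipocytes Zmat3 differed by -0.25 with all libraries (adjusted p = 0.147) and by -0.35 without that library, which was called (adjusted p = 0.033).

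Phlda3 (ENSMUSG00000041801, chr1:135766119-135769136, plus strand), whose product competes with Akt for membrane lipids and so dampens Akt signalling, differed between the lines in opposite directions at the first 2 stages. The shScram replicates held 28.7 and 177 TPM as preadipocytes, 353 and 381 TPM during MCE and 186 and 163 TPM after differentiation. The shFto replicates held 297 and 294, 142 and 145, and 158 and 167 TPM. Thus shScram cells had their highest level at the MCE stage and shFto cells as preadipocytes, while the lines overlapped after differentiation. Between the lines the change was 2.03 in preadipocytes (SE 0.62, adjusted p = 0.041, and 0.0642 to 0.155 without any 1 of the 10 libraries other than shScram preadipocytes) and -1.35 at the MCE stage (adjusted p = 0.185). Leaving out replicate 1 of shScram preadipocytes gave 0.74 and -1.35 (adjusted p = 0.000353 and 6.94e-07), while in preadipocytes leaving out replicate 2 gave 3.32 (adjusted p = 8.11e-09) and GC correction 1.07 (adjusted p = 0.0283). The first step was 2.34 in shScram cells (adjusted p = 0.0171, and 0.0658 or 0.0857 without either MCE replicate), or 1.05 without replicate 1 and 3.63 without replicate 2 of the shScram preadipocytes. In shFto cells it was -1.04, not called with all libraries (adjusted p = 0.259) and called in 4 of 22 alternatives, among them that without replicate 1 (adjusted p = 1.87e-06). With 62.6% GC this gene had the largest gap between the replicates of that group, and its call at the MCE stage depends on how that pair enters the spread.

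Sesn1 (ENSMUSG00000038332, chr10:41809935-41908424, plus strand) and Sesn2 encode sestrins, stress proteins that hold back mTORC1, the growth kinase complex. Sesn1 had 23.3 and 22.2 TPM in shScram preadipocytes, 47.4 and 46.9 TPM during MCE and 85.7 and 91.2 TPM after differentiation. In shFto cells it had 11.4 and 10.9, 15.98 and 14.0, and 54.6 and 59.6 TPM. It rose at each step in both lines, least in the first step of shFto cells (0.40, adjusted p = 0.0302), which was called in 11 of 22 alternatives. At each stage both shFto libraries lay below both shScram libraries. The change between the lines was -0.97 in preadipocytes (SE 0.12, adjusted p = 0.000957), -1.59 at the MCE stage (adjusted p = 4.88e-05) and -0.62 after differentiation (adjusted p = 0.0054). In the means, shFto cells had 0.490, 0.318 and 0.646 times the shScram level. All 3 were called without the library that stood apart, and the last was not called without shScram replicate 2 or shFto replicate 1 of that stage (adjusted p = 0.0513 and 0.0548). Sesn1 overlaps the gene 9930024M15Rik on its strand, so reads of the shared stretch are uncertain.

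Sesn2 (ENSMUSG00000028893, chr4:132492032-132510501, minus strand), which also answers to amino acid stress, went the other way. The shScram replicates held 21.9 and 66.5 TPM as preadipocytes, 38.5 and 40.1 TPM during MCE and 24.7 and 24.4 TPM after differentiation. The shFto replicates held 80.8 and 83.6, 56.8 and 56.3, and 34.4 and 37.0 TPM. Both shFto libraries were above both shScram libraries at every stage. The changes of 1.08, 0.51 and 0.52 were not called with all libraries (SE 0.38, adjusted p = 0.0628, 0.43 and 0.387). They were 0.30, 0.51 and 0.52, and all called, without the library that stood apart (adjusted p = 0.0245, 0.000235 and 0.000196). Sesn2 had its lowest levels after differentiation apart from that library, and the second step of -0.66 in shScram and -0.65 in shFto cells was not called with all libraries (adjusted p = 0.243 and 0.253) and was called in 5 of 22 alternatives in each line, among them that without this library (adjusted p = 4.75e-05 and 4.39e-05). Sesn2 shares its strand and locus with Gm12981, so part of its reads is uncertain.

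Bax (ENSMUSG00000003873, chr7:45461697-45466898, minus strand), which opens the outer mitochondrial membrane in apoptosis, was likewise higher in shFto cells. In shScram cells the replicates held 81.1 and 204 TPM as preadipocytes, 118 and 145 TPM during MCE and 118 and 96.3 TPM after differentiation. In shFto cells they held 320 and 299, 189 and 194, and 171 and 163 TPM. The lines did not overlap at any stage. The change was 1.26 in preadipocytes (SE 0.34, adjusted p = 0.0283, and 0.135 or 0.0969 without shFto replicate 1 or 2), and 0.55 and 0.64 at the later stages, which were not called (adjusted p = 0.343 and 0.229). Without the library that stood apart the changes were 0.60, 0.55 and 0.64, and all 3 were called (adjusted p = 0.00941, 0.00311 and 0.00108). In preadipocytes the change was 1.92 without shScram replicate 2 (adjusted p = 1.02e-06), and 0.28 and no longer called under GC correction (adjusted p = 0.068). In shFto cells the first step of Bax was -0.69, not called with all libraries (adjusted p = 0.173) and called in 5 of 22 alternatives, among them that without replicate 1 of shScram preadipocytes (adjusted p = 0.000528). Bax overlaps Gm45808 on its strand.

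Eda2r (ENSMUSG00000034457, chrX:97333840-97377216, minus strand), a receptor of the tumour necrosis factor family that binds ectodysplasin A2, followed the stage. Its shScram replicates held 38.6 and 26.9 TPM as preadipocytes, 8.83 and 7.16 TPM during MCE and 20.4 and 22.4 TPM after differentiation. Its shFto replicates held 24.2 and 31.9, 8.41 and 9.13, and 17.7 and 18.8 TPM. All 4 MCE libraries were below all others. The first step was -1.89 in shScram and -1.56 in shFto cells (SE 0.20, adjusted p = 0.000161 and 0.000524), and the second 1.32 and 0.98 (adjusted p = 0.00211 and 0.00744). The last of these was not called without shFto MCE replicate 1 or differentiated replicate 2 (adjusted p = 0.0562 and 0.0548). All 4 were called without the library that stood apart. Between the lines no stage was called with all libraries or without that library, with changes between -0.22 and 0.12 over all libraries, while leaving out replicate 2 of shScram preadipocytes gave -0.46 in preadipocytes (adjusted p = 0.0394).

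Trp53inp1 (ENSMUSG00000028211, chr4:11156431-11174379, plus strand), a stress protein that promotes p53 activity and autophagy, moved with both stage and line. The shScram replicates held 81.0 and 54.4 TPM as preadipocytes, 30.7 and 27.3 TPM during MCE and 73.0 and 81.2 TPM after differentiation. The shFto replicates held 25.8 and 35.5, 14.5 and 12.01, and 45.5 and 45.2 TPM. Every shFto library was below both shScram libraries of its stage, and both lines were lowest at the MCE stage. The change between the lines was -1.11, -1.07 and -0.75 at the successive stages (SE 0.21, adjusted p = 0.00797, 0.00863 and 0.0354). All 3 were called without the library that stood apart (adjusted p = 0.0064, 0.00021 and 0.00182). Leaving out shFto replicate 1 ended the call in preadipocytes (adjusted p = 0.0688), as did shScram replicate 1 or shFto replicate 2 at the MCE stage (adjusted p = 0.0671 and 0.0806). At the differentiation stage the call was lost without any 1 of the 8 libraries of the MCE and differentiation stages, with adjusted p from 0.0536 to 0.179. The first step was -1.17 and -1.14 in shScram and shFto cells (adjusted p = 0.00308 and 0.00396), and the second 1.38 and 1.70 (adjusted p = 0.00228 and 0.000715). GC correction lowered the change between the lines in preadipocytes to -0.62 and the first step in shScram cells to -0.52, both still called (adjusted p = 0.00299 and 0.00431).

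The difference between the lines in a stage step was tested as an interaction. For the first step no gene of the 10 was called by limma, 2 had an unadjusted p under 0.05, and 5.11% of all genes were called. The 2 were Phlda3, with -3.37 (SE 0.88, adjusted p = 0.0652), and Sesn1, with -0.62 (SE 0.16, adjusted p = 0.066). Without replicate 1 of shScram preadipocytes Phlda3 had -2.09 (adjusted p = 1.51e-05), Sesn1 -0.66 (adjusted p = 0.0116) and Trp53 0.52 (adjusted p = 0.00555), against 14.1% of all genes called. For the second step only Sesn1 was called, 1 of 10 against 2.49% of all genes. It rose by 0.89 in shScram and by 1.86 in shFto cells, a difference of 0.97 (SE 0.16, adjusted p = 0.0195). On this log2 scale the lines were nearer after differentiation. In mean TPM, Sesn1 went from 47.1 to 88.5 in shScram and from 15.0 to 57.1 in shFto cells, rises of similar size. Without the library that stood apart Phlda3 was called as well, with 1.25 (adjusted p = 7.31e-05), against 17.1% of all genes.

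The other genes of the pathway were grouped into 10 arrest targets, 11 death and receptor targets, 12 repair and metabolism targets and 19 regulators and relatives of p53, of which 9, 9, 12 and 18 were tested. At the MCE stage 4 of the 48 tested genes were called higher and 4 lower in shFto cells, and at the differentiation stage 5 and 5. Over all tested genes, 10.5% were called higher and 7.26% lower at the MCE stage, and 11.9% and 9.31% at the differentiation stage. In preadipocytes the 48 genes gave 8 and 8, against 15.9% and 12.3%. There the death and receptor targets gave 1 and 2, the repair and metabolism targets 2 and 3, and the regulators and relatives 0 and 3. Of the arrest targets 5 were called higher and 0 lower in preadipocytes, 1 and 1 at the MCE stage, and 3 and 1 at the differentiation stage. Their median change in preadipocytes was 1.03 with all libraries and 0.62 without the library that stood apart. Without that library the 4 groups together gave 10 higher and 5 lower in preadipocytes, 11 and 10 at the MCE stage, and 15 and 9 at the differentiation stage, against 16.1% and 12.9%, 25.2% and 15.8%, and 25.3% and 20.4% of all genes.

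Among the arrest targets, Cdkn1a, which encodes the cyclin-dependent kinase inhibitor p21, had 309 and 314 TPM in shFto preadipocytes against 115 and 202 TPM in shScram preadipocytes (log2 change 1.03, SE 0.22, adjusted p = 0.0115). This change was 0.62 without the library that stood apart and 0.59 under GC correction (adjusted p = 0.000254 and 0.000904), and it was not called without shFto replicate 1 or 2 (adjusted p = 0.0689 and 0.0617). At the MCE stage the lines had 140 and 132 TPM against 133 and 139 TPM and overlapped. Its RefSeq window holds a full p53 site with 1 mismatch at chr17:29090928-29090947 of GRCm38.p6, plus strand, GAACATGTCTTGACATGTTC, shown as the best known arrest target. Btg2, an antiproliferative gene, was higher in shFto cells with 9.25 and 9.67 TPM against 2.23 and 1.21 TPM at the MCE stage (log2 change 1.97, SE 0.27, adjusted p = 0.0013) and with 22.8 and 23.5 TPM against 7.85 and 7.80 TPM after differentiation (1.45, adjusted p = 0.00508). Ptprv, a receptor tyrosine phosphatase gene, had 4.795 and 4.605 TPM against 0.659 and 1.11 TPM after differentiation (log2 change 1.61, SE 0.26, adjusted p = 0.00263). In the other direction, the arrest target Plk2 was called lower at the MCE stage and after differentiation (log2 changes -0.35 and -0.50, SE 0.10, adjusted p = 0.043 and 0.00874).

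Genes that act in cell death were called in both directions. Bid, which links death receptors to Bax, was lower in shFto cells with 19.0 and 19.8 TPM against 73.7 and 62.0 TPM during MCE and 20.96 and 25.2 TPM against 79.4 and 79.1 TPM after differentiation (log2 changes -1.75 and -1.74, SE 0.14, adjusted p = 7.72e-05 and 5.63e-05). Bid overlaps Gm44260 on its strand. Apaf1, the scaffold of the apoptosome, was higher with 14.4 and 13.9 TPM against 7.95 and 7.02 TPM at the MCE stage (log2 change 0.84, SE 0.15, adjusted p = 0.00458). Dram1, which acts in autophagy, was higher with 97.7 and 100.3 TPM against 27.9 and 33.0 TPM after differentiation (log2 change 1.67, SE 0.16, adjusted p = 0.000174). In none of these pairs did the libraries of the lines overlap. The same held for 71.4% of all genes at the MCE stage and 72.9% after differentiation, and these genes were named for large called changes.

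In metabolism and repair, Gls2, a glutaminase gene at low level, had 3.15 and 1.78 TPM in shFto cells against 0.496 and 0.326 TPM at the MCE stage (log2 change 1.27, SE 0.27, adjusted p = 0.0111), a change of 2.29 with a pseudocount of 0.1 and not called without either shScram library or shFto replicate 1 of that stage (adjusted p = 0.05 to 0.0986). Rrm2b, a ribonucleotide reductase subunit for DNA repair, was lower with 6.63 and 8.04 TPM against 11.8 and 12.4 TPM after differentiation (log2 change -0.66, SE 0.18, adjusted p = 0.0322), and the call was lost in 13 of 22 alternatives, among them those without any 1 of the 10 libraries other than shScram preadipocytes (adjusted p = 0.0532 to 0.192). Of the regulators, Rchy1, a ubiquitin ligase for p53, was lower with 28.7 and 28.2 TPM against 48.8 and 54.0 TPM after differentiation (log2 change -0.83, SE 0.11, adjusted p = 0.00118). Rpl11 and Rpl5, ribosomal proteins that bind and inhibit Mdm2, were lower at the MCE stage with changes of -0.70 and -0.51 (SE 0.18 and 0.14, adjusted p = 0.0244 and 0.0377), and after differentiation their changes were 0.0011 and -0.11, neither called. At the MCE stage the call of Rpl11 was lost without any 1 of the 4 MCE libraries (adjusted p = 0.0696 to 0.152), and that of Rpl5 without any 1 of the 10 libraries other than shScram preadipocytes (adjusted p = 0.0637 to 0.201). The calls given for Btg2, Ptprv, Bid, Apaf1 and Rchy1, and that of Dram1 after differentiation, held in all alternatives in which the gene was tested, the one without replicate 1 of shScram preadipocytes included. Mdm4, the partner of Mdm2, had 23.97 and 21.5 TPM in shFto cells and 24.3 and 20.5 TPM in shScram cells at the MCE stage and was not called between the lines at any stage. On their own strands, Rchy1 overlaps Gm43039, Rrm2b overlaps Gm3362, and Rpl5 overlaps Snord21, Gm22270 and Gm26387, so part of their reads is uncertain.

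**Figure D5:**
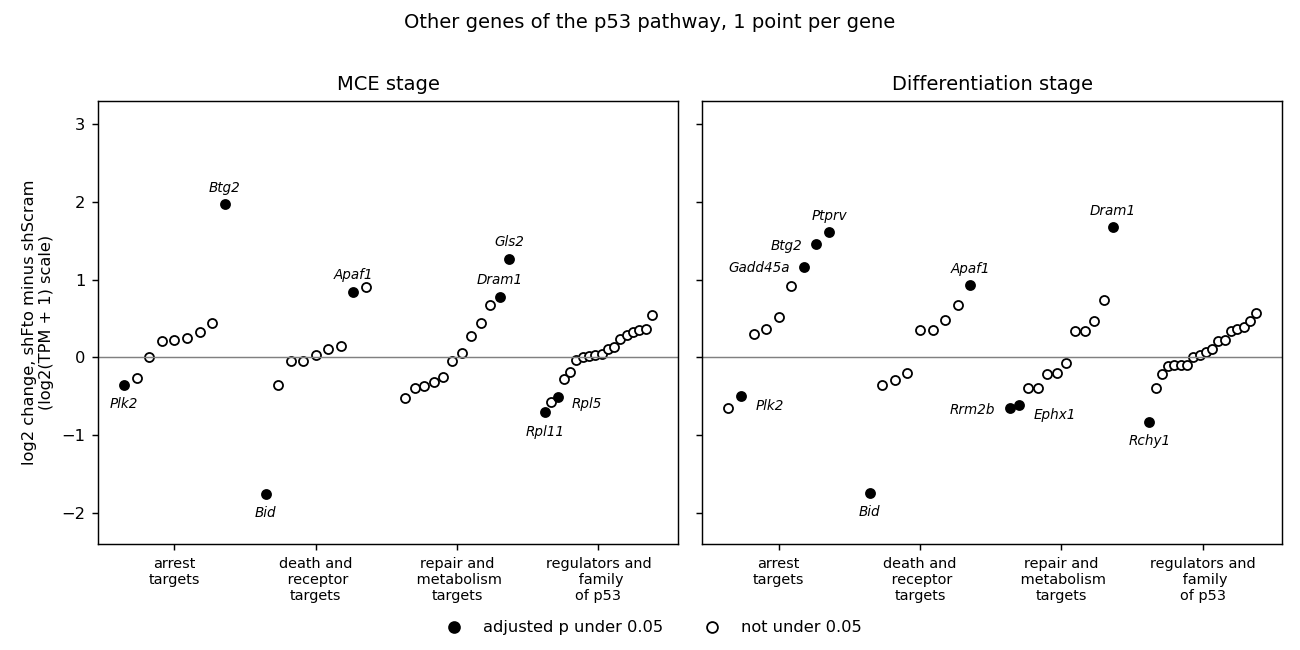
Change between the lines (shFto minus shScram, log2(TPM + 1)) of the 48 other tested genes of the pathway at the MCE and differentiation stages, 1 point per gene in 4 groups, filled where the adjusted p was under 0.05 and named. Bid lies lowest at both stages, with -1.75 and -1.74, while Btg2 at 1.97 and Dram1 at 1.67 lie highest.

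Across the 12 libraries, the genes whose log2(TPM + 1) ran most like Trp53, among 10800 genes with a mean of 5 TPM or more, were Mthfd1, Sf3b2 and Tsr3, with Pearson r of 0.99, 0.97 and 0.95. Those most like Mdm2 were Zfp182, Rmnd1 and Mbnl1, each with r of 0.98. Within the 10 genes, Trp53 was most like Sesn2 (r = 0.94) and Bax (r = 0.79) and ran against Sesn1 (r = -0.77), and Mdm2 was most like Eda2r (r = 0.91), Trp53inp1 (r = 0.90) and Ccng1 (r = 0.83). The points share stages and the library that stood apart, and the values describe these 12 libraries only.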

How the data were processed

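RNA-seq of 12 libraries of 3T3-L1 cells (shScram or shFto at the Pre, MCE and Diff stages, 2 libraries in each of 6 groups) was used, and groups follow the sample titles. The authors deposited TPM values for the genes of Ensembl release 102, made by StringTie 2.1.4 from reads that Trim Galore 0.6.5 had trimmed and HISAT2 2.1.0 had aligned to GRCm38. Whether counting used strand is not given in the sources used here. The study tested counts with DESeq2, which TPM does not allow. TPM keeps no depth, and 2 libraries per group limit the precision.

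Genes reaching 1 TPM in 2 or more libraries (15968 of 55487) were tested on log2(TPM + 1) by limma 3.58.1 in R 4.3.3, with 1 mean for each group, a trended eBayes spread, 6 residual degrees of freedom, two-sided tests and Benjamini-Hochberg adjustment over all tested genes. Gene models came from GENCODE release M21, which held 99.4% of the identifiers, and promoter windows from RefSeq on GRCm38.p6. All 10 genes are named. From the other pathway genes, the 3 highest and 3 lowest called changes between the lines at the MCE and differentiation stages are named, with Cdkn1a and Mdm4 in any case, and the 3 genes most correlated with Trp53 and with Mdm2. Plk2 was added as the arrest target called lower at these stages. The genes, lists and tests were chosen with earlier results of these data known. The alternatives were another pseudocount, other filters on low values, scaling between libraries, a GC correction, other estimates of the spread, a replicate block, another call rule and each library left out. Lists without that library and the neighbours of Mdm2 were added after seeing the data. On simulated data for the comparison at the MCE stage, changed genes were recovered with the sign they were given.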

Additional observations from a re-analysis of the deposited data

Results flagged for a closer look

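The effect of the second stage step on Sesn1 differed between the lines by an interaction test on the log2 scale. In mean TPM the rises were of similar size in both lines. Sesn1 went from 47.4 and 46.9 TPM to 85.7 and 91.2 TPM in shScram cells and from 15.98 and 14.0 TPM to 54.6 and 59.6 TPM in shFto cells, and the difference of the log2 changes was 0.97 (limma, adjusted p = 0.0195). The call was lost without any 1 of the 8 libraries of these stages, with adjusted p from 0.0612 to 0.114 and differences from 0.88 to 1.06. It held without any 1 of the 4 preadipocyte libraries. No cause was tested. The rule used to find single values that lie apart within a group needs 4 libraries or more, so it was not applied to these groups of 2.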

How the results depend on the processing

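Of 1672 values of single genes under the alternatives, 1435 kept their direction and their side of the threshold, 94 lost a call, 121 gained one and 22 changed sign, none of them called at first and 6 of them called with the other sign. For the differences between the lines in a step, only Sesn1, Phlda3 and Trp53 were among these values. The number of the 10 genes called depended on the fit. Without a filter on low values it was 2, 1 and 1 for the knockdown at the successive stages. With the libraries of the contrast alone it was 0, 6 and 5 for these, 0 and 8 for the first and second step in shScram cells, 9 and 10 in shFto cells, and 2 for the difference in the second step. With array weights it was 1, 6 and 5, then 4 and 9, 9 and 8, and 1 and 2 for the differences. GC correction gave 7 for the second step in either line and 2 for the difference in the first step, where median-ratio scaling gave 1. At a fold change over 2 or under 0.5 with unadjusted p under 0.05 the counts were 0 for the knockdown after differentiation, 2 and 2 for the second steps, 3 for the first step in shFto cells, and 1 and 0 for the differences.

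Leaving out each library gave 1 to 9, 1 to 6 and 0 to 5 genes for the knockdown at the successive stages, 5 to 10 and 3 to 9 for the steps in shScram cells, 4 to 9 and 2 to 7 in shFto cells, and 0 to 8 and 0 to 2 for the differences. The highest counts came without either replicate of the shScram preadipocytes, so the counts alone do not say which of them stands apart.

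Values that changed sign with a library left out ran, over the libraries, from -0.24 (without replicate 1 of shScram preadipocytes) to 1.09 (without replicate 2) for Trp53 and from -0.46 to 0.043 for Eda2r between the lines in preadipocytes. With the same 2 libraries decisive, the first step in shScram cells ran from -0.67 to 0.66 for Trp53, from -0.74 to 0.82 for Sesn2 and from -0.64 to 0.68 for Bax, and the Trp53 difference in the first step from -0.80 to 0.52. Without shScram MCE replicate 1 or 2, Ccng1 ran from -0.22 to 0.056 and Eda2r from -0.010 to 0.26 between the lines at that stage, and without MCE replicate 2 the Trp53 and Bax first steps were 0.0015 and -0.13. GC correction turned Eda2r between the lines in preadipocytes (0.19), Sesn2 (-0.28) and Bax (-0.43) in the first step in shScram cells, Trp53 (0.083) and Phlda3 (-0.094) in the first and second step in shFto cells, and the Trp53 difference (0.15). Median-ratio scaling turned Trp53 in the first step (0.22 in shScram, 0.091 in shFto) and Phlda3 in the second step in shFto cells (-0.037). Quantile normalization turned Mdm2 between the lines (0.15 in preadipocytes, 0.18 after differentiation) and Trp53 in the first step in shScram cells (0.037). Differences between the lines in a step were listed here for Sesn1, Phlda3 and Trp53 only. Without replicate 1 of shScram preadipocytes, the first-step difference of Sesn2 went from -0.57 to 0.21. That of Mdm2 went from 0.18 to -0.11, and that of Trp53inp1 from 0.035 to -0.25. The cause was not tested.

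Deviations of same-numbered libraries correlated by -0.29 to 0.17 over 15 pairs of groups, so replicate numbers were not treated as pairs. These values cannot show whether cultures or batches were shared, because numbering may differ between groups. With the replicate block the knockdown at the differentiation stage kept 1 call, Sesn1.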

Other observations

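With all libraries, Mdm4 was called over both stage steps in both lines, and Mdm2 only in shScram cells. Mdm4, which pairs with Mdm2, had 67.4 and 46.7 TPM in shScram preadipocytes, 24.3 and 20.5 TPM during MCE and 72.5 and 76.0 TPM after differentiation. In shFto cells it had 39.7 and 48.2, 23.97 and 21.5, and 84.7 and 89.0 TPM. As with Mdm2, the 4 MCE libraries held the lowest levels. The first step was -1.29 in shScram and -0.92 in shFto cells (SE 0.18, limma adjusted p = 0.000834 and 0.00554), and the second 1.69 and 1.89 (adjusted p = 0.000449 and 0.000215). All 4 were called without replicate 1 of shScram preadipocytes. The first step of Mdm4 in shFto cells was not called without replicate 2 of the preadipocytes or of the MCE stage (adjusted p = 0.0533 and 0.0505), and that in shScram cells was -0.81 under GC correction (adjusted p = 0.00021).

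Cdkn1a fell from preadipocytes to the MCE stage in shFto cells, from 309 and 314 TPM to 140 and 132 TPM (log2 change -1.19, SE 0.22, limma adjusted p = 0.00337). In shScram cells it went from 115 and 202 TPM to 133 and 139 TPM, a change of -0.16 that was not called (adjusted p = 0.571) and was -0.57 without replicate 1 (adjusted p = 0.000153). The difference between the lines in this step was -1.03 with all libraries (adjusted p = 0.096) and -0.62 without that library (adjusted p = 0.00204).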
